A study of Danio rerio with 16 samples.

Results

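The genes described here encode the classical axon guidance ligands and their receptors in zebrafish: semaphorins with plexins and neuropilins, ephrins with Eph receptors, slits with Robo receptors, and netrins with Dcc and Unc5 receptors. They were chosen by symbol, and a symbol was kept if it had at least 10 counts in 2 libraries; of 97 symbols that match, 96 were kept, out of 30565 symbols in the table. The symbol efnb1 was not kept. The 96 comprise 30 semaphorins, 12 plexins, 4 neuropilins, 11 ephrins, 19 Eph receptors, 4 slits, 4 Robo receptors, 5 netrins, dcc and 6 symbols starting with unc5. The last of these, unc50, matches the pattern but is not a netrin receptor, and was left out of the counts of receptors and of the summed levels.

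These molecules are known for steering growth cones. Secreted class 3 semaphorins act through complexes of neuropilins and A-type plexins, and membrane-bound semaphorins of classes 4 to 6 bind plexins directly. Ephrins are held on the cell surface and repel or attract cells that carry Eph receptors, with A-class receptors mostly binding the GPI-anchored A ephrins and B-class receptors the transmembrane B ephrins. Slits repel axons through Robo receptors, while netrins attract through Dcc and repel through Unc5 receptors. In the mature brain many of these genes remain expressed, in neurons at synapses and in glia and vessels.

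The data are bulk RNA-seq of cells sorted from the brains of fish aged 1 month. LH cells were the GCaMP6s-positive cells of the line Tg(76A:Gal4FF:UAS:GCaMP6s), a driver line used to obtain lateral hypothalamic cells with a calcium indicator, and non-LH cells were the GCaMP6s-negative cells of that line. cH cells were the GFP-positive cells of Tg(116A:Gal4FF:UAS:GFP), used to obtain caudal hypothalamic cells, and non-cH cells were the GFP-negative cells of that line. Each group has 4 libraries, each from a pool of 8 brains that the labels call biological replicates, so no value belongs to a single fish. All groups carry Gal4FF and a UAS reporter. The negative cells come from whole brains, so the controls are brain cells of all regions and not hypothalamic cells alone. The line and the reporter change together between LH and cH, so their effects cannot be told apart in a direct comparison of these groups.

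The libraries held between 26848940 and 49350823 counts, and guidance genes took between 0.506% and 0.656% of them. The cH libraries stood apart. Between 75 and 85 of the 96 genes were detected in cH libraries, against 91 to 96 in the other 12 libraries. The median correlation of log2 values between replicates was 0.673 in cH and from 0.903 to 0.944 in the other groups. Fewer genes of all kinds were detected there too. cH libraries 1 and 2 detected 13478 and 13663 genes and cH libraries 3 and 4 detected 16793 and 16887, against 18843 to 21015 in the other 12 libraries.

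Levels are given in CPM, the counts of a library scaled by its total and its TMM factor, as mean ± SD over 4 libraries or library by library in the order of the sample numbers. They carry no correction for gene length, so they compare groups and not genes. Tests are edgeR's quasi-likelihood F tests on the 8 libraries compared, with Benjamini-Hochberg adjustment over all genes tested; a gene that rose or fell had an adjusted p under 0.05, and log2 fold changes carry their SE. As these are bulk samples, fewer cells of a type and less RNA per cell cannot be told apart.

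As a check of the tissue, 7 genes known from the hypothalamus were chosen after values of these data had been seen, and they did not all move one way. The transcription factor gene nkx2.4b was at 14.5 to 19.5 CPM in LH and 9.21 to 13.4 CPM in non-LH, and at 19.0 to 51.6 CPM in cH and 5.64 to 15.9 CPM in non-cH. nkx2.4a was at 62.5 to 89.1 CPM in LH and 18.3 to 49.1 CPM in non-LH, and at 72.0 to 212 CPM in cH and 22.2 to 36.2 CPM in non-cH. Both were thus higher in the positive sorts without overlap, as was nkx2.1 in LH (11.4 to 16.7 CPM, against 9.37 to 11.1 CPM in non-LH), while nkx2.1 overlapped in cH (8.60 to 39.3 CPM, against 6.38 to 17.0 CPM in non-cH). otpb went the other way, at 6.75 to 8.83 CPM in LH and 19.0 to 35.5 CPM in non-LH, and at 0 to 1.45 CPM in cH and 21.1 to 31.3 CPM in non-cH. otpa was at 2.30 to 25.9 CPM in LH and 25.3 to 64.3 CPM in non-LH, and at 0 to 16.1 CPM in cH and 24.9 to 49.0 CPM in non-cH. hcrt, the neuropeptide gene that marks a classical neuron type of the lateral hypothalamus, was near 0 throughout, at most 0.56 CPM in LH and 0.976 CPM in non-LH, and 0 in cH and at most 1.21 CPM in non-cH. th2, a tyrosine hydroxylase gene of the caudal hypothalamus, was at 54.7 to 587 CPM in cH and 2.31 to 14.7 CPM in non-cH, and at most 0.411 CPM in LH, against 5.16 to 10.6 CPM in non-LH.

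Markers of other cell types moved with the sorts, and their part in the results below was not tested. In cH, the 19 radial glia and progenitor markers summed to 58600 to 112000 CPM, against 4410 to 11600 CPM in non-cH, with 11 higher and 1 lower of 18 tested. Pan-neuronal markers summed to 504 to 2230 CPM in cH, against 11600 to 14500 CPM in non-cH, with 14 of 19 lower. Ependymal markers summed to 179 to 923 CPM in cH and 41.0 to 79.5 CPM in non-cH, with 2 of 6 higher. Endothelial markers summed to 31.4 to 121 CPM in cH and 82.1 to 273 CPM in non-cH; kdrl, flt1, egfl7, cldn5b and etv2 had no count in cH, and 4 of 14 were lower. In LH, radial glia markers summed to 3800 to 6300 CPM, against 4290 to 7310 CPM in non-LH, with 1 higher and 10 lower of 18. Pan-neuronal markers summed to 10800 to 11600 CPM in LH and 12100 to 13400 CPM in non-LH, with 4 higher and 5 lower of 19. Of the other lists, erythrocyte markers fell in both positive sorts (5 of 5 tested in each). Oligodendrocyte markers had 0 calls of 14 in LH and 0 of 13 in cH, and microglia markers 2 higher of 10 in LH and 0 of 9 in cH. Meningeal markers had 0 of 6 in LH and 1 higher and 1 lower of 6 in cH, endothelial markers 1 higher of 13 in LH, and ependymal markers 0 of 7 in LH.

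LH cells were set against other brain cells to ask which guidance genes mark the lateral hypothalamic sort. Of the 10 rises 9 were in receptors. Whether receptors and ligands differ was not tested. The rises were those of robo1, robo3, unc5da, unc5db, epha5, epha6, epha7, nrp2a, nrp2b and the ligand ntn1b, while plexins and ephrins made up 10 of the 18 falls. Of 94 members that passed the filter on low counts (ntn2 and ntn5 did not), 10 rose and 18 fell, which is 29.8% against 13.5% of all 18674 genes tested. By direction, 6.67% of all genes rose and 6.79% fell. The median log2 fold change was -0.10 over the members and -0.05 over all genes. Of 48 ligands 1 rose and 7 fell, and of 45 receptors 9 rose and 11 fell. Groups did not overlap for 18 members that were higher and 23 that were lower in LH; among all genes this held for 9.91% and 12.3%.

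**Figure D1:**
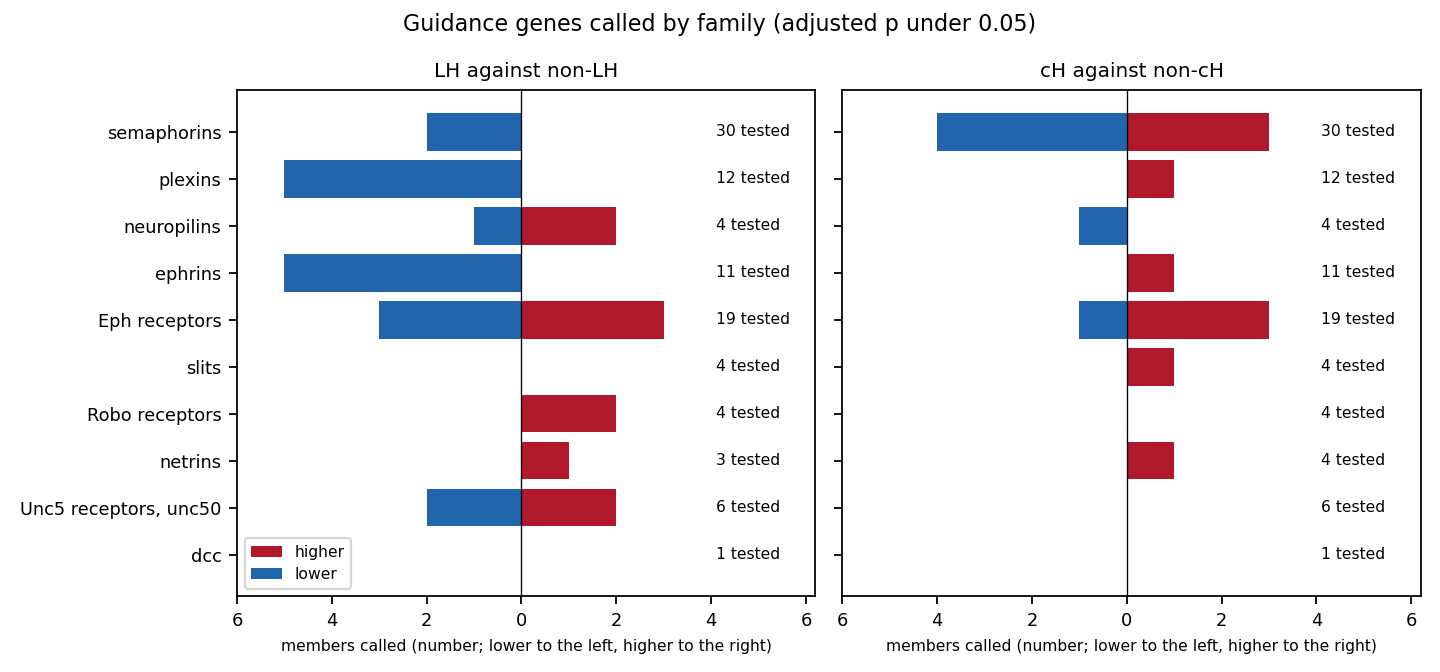
Number of members that rose (right of 0) or fell (left of 0) at an adjusted p under 0.05, by family, in LH against non-LH (left panel) and cH against non-cH (right panel), with the number tested beside each family. In LH the 5 called plexins and the 5 called ephrins all fell and both called Robo receptors rose. In cH semaphorins, the largest family with 30 tested, hold the most calls, with 3 higher and 4 lower. Robo receptors, Unc5 receptors and dcc hold none there.

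With all 16 libraries in 1 edgeR model, 3 members rose and 2 fell in LH: epha7, robo1, unc5db, epha3 and plxna1a kept their calls. That model tested 20241 genes, and limma voomWithQualityWeights on the same 16 libraries gave 11 rises and 20 falls, with 25 of the 28 calls shared; why the 2 differ was not tested. Leaving out 1 library at a time left 21 of the 28 calls in place each time. The exceptions were efna2a (lost without LH 1, LH 3 or non-LH 2, adjusted p up to 0.0558), epha8 (without LH 4 or non-LH 1, 2 or 4, up to 0.0641), ephb4a (without LH 1, 3 or 4 or non-LH 1, 2 or 4, up to 0.0721) and epha5 (without LH 2 or any non-LH library, up to 0.0789). The others were plxna1b (without LH 1 or 2 or non-LH 2, 3 or 4, up to 0.0857), efna5a (without LH 1, 2 or 4 or non-LH 1, 2 or 3, up to 0.11) and efnb2b (without any library but LH 4, up to 0.121).

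cH cells were set against other brain cells in the same way for the caudal hypothalamic sort. The rises were those of the ligands ntn1b, slit2, sema3aa, sema3ab, sema3h and efna1a and of the receptors epha3, epha4b, epha4l and plxnb1b, and the falls those of the receptors ephb3a and nrp2a and the ligands sema3e, sema4ga, sema4gb and sema6d. Of 95 members tested (ntn5 was not), 10 rose and 6 fell, which is 16.8% against 11.9% of all 17265 genes, of which 4.99% rose and 6.89% fell. The median log2 fold change was -0.28 over the members and -0.21 over all genes; genes with no count in cH lie below that median at their bounds as well. Of 49 ligands 6 rose and 4 fell, and of 45 receptors 4 rose and 2 fell. Groups did not overlap for 13 members that were higher and 18 that were lower in cH, against 8.96% and 18.9% of all genes.

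In cH the 4 calls that held without each library in turn were efna1a, ephb3a, ntn1b and sema3aa. Counts without 1 library ran from 3 (without non-cH 4) to 11 (without cH 2) rises and from 1 (without non-cH 2 or 4) to 11 (without cH 1) falls; without non-cH 1, 2 or 3 there were 5, 4 and 5 rises, and without non-cH 3 there were 2 falls. Calls lost without some non-cH library, but kept without each cH library, were epha3 (non-cH 4, adjusted p 0.0527), sema6d (non-cH 2 or 4, up to 0.0524), sema4ga and sema3e (each non-cH 2, 3 or 4, up to 0.0524 and 0.054), plxnb1b (non-cH 2, 3 or 4, up to 0.0576) and sema3h (non-cH 1, 2 or 4, up to 0.0696). Without any 1 of the non-cH libraries the calls of nrp2a (up to 0.0651), epha4b (up to 0.0718) and sema4gb (up to 0.0752) were lost. Those of sema3ab (up to 0.108), epha4l (up to 0.117) and slit2 (up to 0.107) were lost in the same way, and also without cH 3 or 4, without cH 1 or 4, and without cH 1, 3 or 4, in that order. With all 16 libraries in 1 model 16 members rose and 16 fell, and with cH 1 and cH 2 left out 17 rose and 18 fell. With the replicate number as a block in the model, 4 rises (efna1a, epha3, ntn1b and sema3aa) and 1 fall (ephb3a) kept their calls. All the other calls in cH were lost with that block.

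**Figure D2:**
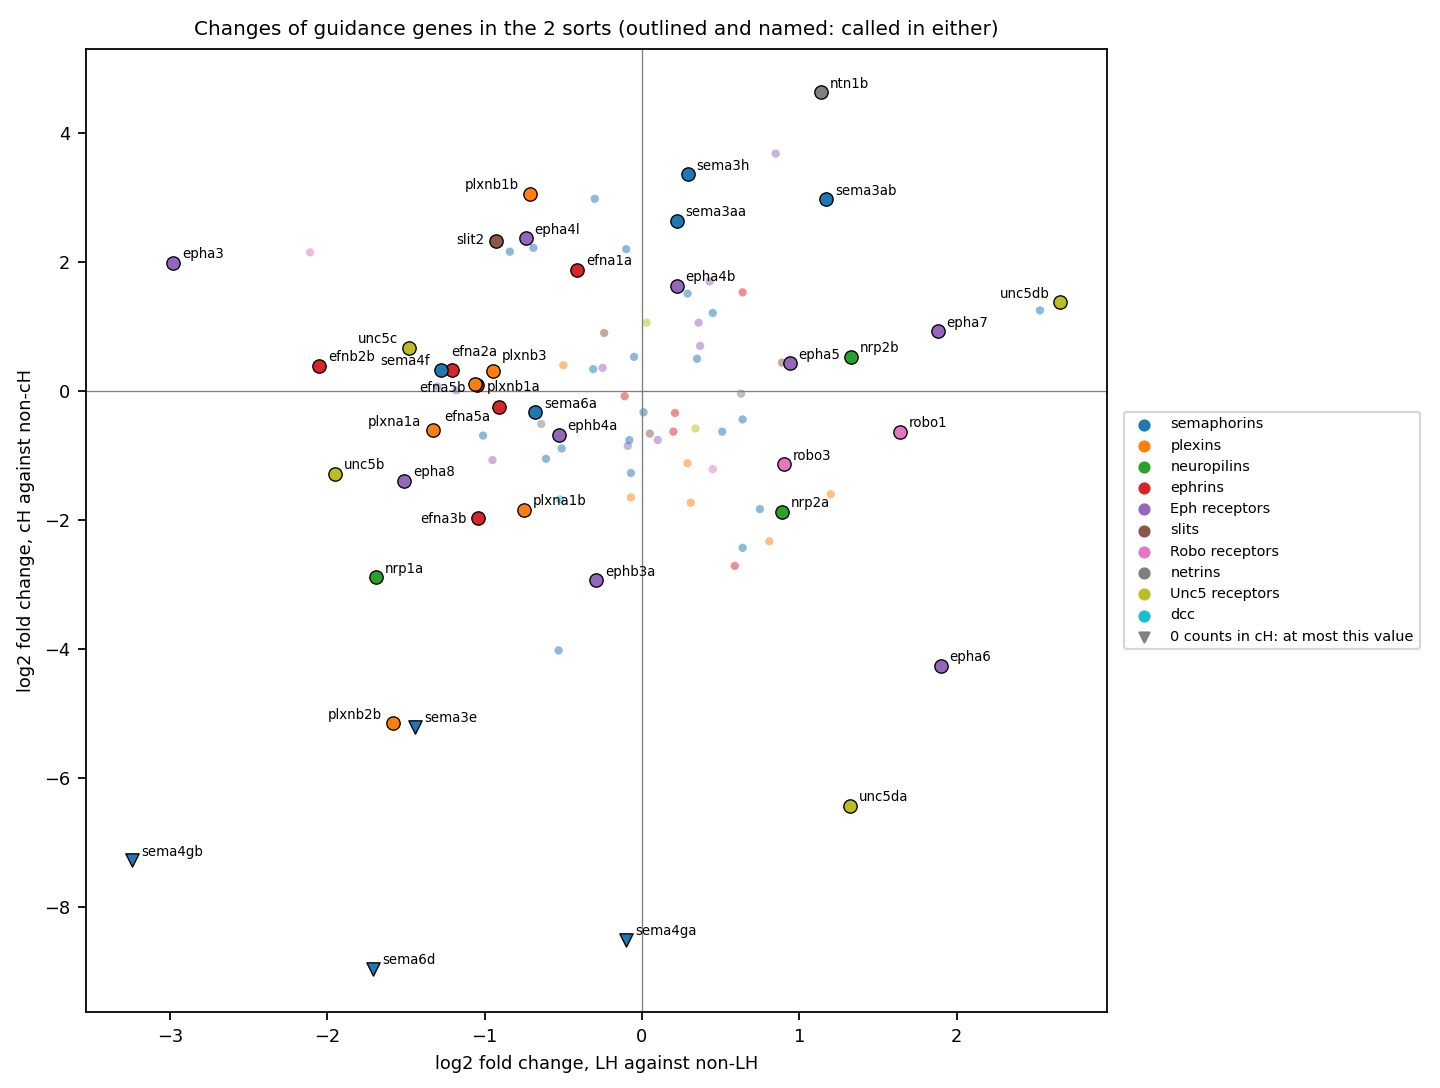
Each point is a member tested in both sorts; the horizontal axis is its log2 fold change in LH against non-LH and the vertical axis that in cH against non-cH, coloured by family, with named outlined points called in either. Triangles have no count in cH and are drawn at the value nearest to 0 that a floor of 3 counts allows. ntn1b was called higher in both, nrp2a lies at 0.89 and -1.87, and epha3 at -2.98 and 1.99.

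The comparisons of LH and of cH with their own negative cells share no library. Of the members tested in both, 53 passed in neither. ntn1b rose in both sorts, nrp2a rose in LH and fell in cH, and epha3 fell in LH and rose in cH. Another 8 rose and 17 fell in LH with no call in cH, and 8 rose and 5 fell in cH with no call in LH; a call in 1 sort is no test of the difference, which is given further on.

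Of 30 semaphorins none rose and 2 fell in LH, where 13.5% of all genes were called. In cH 3 rose and 4 fell, where 11.9% of all genes were called. These counts do not test a difference between the sorts. In the test of the difference given further on, 2 semaphorins were higher and 1 lower. The 2 that fell in LH were sema4f and sema6a, both membrane-bound. The other 28 had log2 fold changes from -3.24 (sema4gb) to 2.53 (sema3ga) without passing. sema4f was at 38.0, 34.9, 30.6 and 22.5 CPM in LH and 59.4, 80.9, 77.1 and 89.1 CPM in non-LH. Every LH library lay below every non-LH library, and the log2 fold change was -1.28 ± 0.20 (adjusted p = 0.00244). sema6a, which in mouse acts through plexins A2 and A4, was at 122, 107, 135 and 156 CPM in LH and 195, 220.0, 202 and 217 CPM in non-LH, again without overlap (-0.68 ± 0.13, adjusted p = 0.00567). In cH neither passed: sema4f was at 69.5 ± 53.5 CPM in cH and 55.2 ± 34.7 CPM in non-cH, and sema6a at 179 ± 84.2 and 225 ± 52.2 CPM.

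In cH 3 of the 12 class 3 semaphorins rose and 1 fell, and 3 of the 17 of classes 4 to 6 fell. sema3aa and sema3ab encode zebrafish forms of semaphorin 3A, the secreted repellent that signals through neuropilin 1. sema3aa was at 149.5, 90.2, 280.1 and 152 CPM in cH and 25.1, 18.8, 32.0 and 31.7 CPM in non-cH. The lowest cH library was well above the highest non-cH library, and the log2 fold change was 2.64 ± 0.40 (adjusted p = 0.00575). sema3ab, named after its values were seen, was at 24.6, 104, 268 and 151 CPM in cH and 26.3, 10.9, 25.2 and 7.41 CPM in non-cH, so that cH 1 lay within the non-cH range (2.97 ± 0.75, adjusted p = 0.0355). sema3h was at 238, 24.1, 135 and 154 CPM in cH and 10.4, 7.14, 27.0 and 9.20 CPM in non-cH (3.36 ± 0.75, adjusted p = 0.0209). Here cH 2 lay below the highest non-cH library. In LH none of these 3 passed: sema3aa was at 31.0 ± 4.59 CPM in LH and 26.7 ± 2.64 CPM in non-LH, sema3ab at 37.1 ± 15.8 and 16.4 ± 7.89 CPM, and sema3h at 13.9 ± 11.1 and 11.3 ± 6.99 CPM.

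The 4 semaphorins that fell in cH were low everywhere and had no count in any cH library. Their bounds use a floor of 3 counts over the group, which covers counting error only. On that floor sema6d was at least 495-fold lower in cH, with 14.4, 12.7, 5.86 and 11.6 CPM in the non-cH libraries (adjusted p = 0.0115). The fall of sema4ga was at least 363-fold, with 11.5, 3.64, 11.3 and 5.99 CPM in the non-cH libraries (adjusted p = 0.0131). The other 2, sema4gb and sema3e, named after their values were seen, were at least 155-fold and 36.8-fold lower in cH. With limma voomWithQualityWeights on all 16 libraries, sema6d (adjusted p = 0.0696), sema4gb (adjusted p = 0.148) and sema3e (adjusted p = 0.12) lost their calls. Even numbers made up 66.9% of all counts from 1 to 20, so a floor of 3 counts may stand for fewer molecules than it seems and the bounds may be too high. Zeros in cH also occurred beside high values of the same gene. For example sema3ga, picked after its values were seen, was at 0, 83.8, 0 and 0 CPM in cH. The bounds do not cover such spread between libraries, so they are not lower limits of the fall in the cells. The share of all genes with no count in any cH library was not computed. A membrane semaphorin that varied more was sema5a, at 0, 0.0711, 8.78 and 32.4 CPM in cH and 248, 128, 204 and 91.5 CPM in non-cH. It did not overlap but did not pass (adjusted p = 0.239), and was named after its values were seen.

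Of 12 plexins, the signalling receptors for semaphorins, 5 fell in LH and none rose. plxna1a, a partner of neuropilins in semaphorin 3 receptors, was at 112, 69.1, 94.9 and 104 CPM in LH and 252, 246, 220.0 and 239.7 CPM in non-LH. All 4 LH libraries were below all 4 non-LH libraries by a wide margin (-1.33 ± 0.15, adjusted p = 0.000292). plxnb2b, a copy of plexin B2, a receptor for class 4 semaphorins, was at 18.5, 32.8, 46.5 and 27.5 CPM in LH and 81.0, 94.2, 107 and 92.2 CPM in non-LH (-1.58 ± 0.26, adjusted p = 0.00282). Also lower, and named after their values were seen, were plxna1b (-0.75), plxnb1a (-1.06) and plxnb3 (-0.95). plxnb3 is known in mouse from oligodendrocytes; oligodendrocyte markers summed to 1530 to 12700 CPM in LH and 9500 to 12900 CPM in non-LH, and the part of those cells was not tested. No other A plexin passed: plxna2 was at 232 ± 70.1 CPM in LH and 187 ± 26.3 CPM in non-LH, plxna3 at 276 ± 11.3 and 225 ± 29.9 CPM, and plxna4 at 150.2 ± 16.3 and 158 ± 12.6 CPM, the levels of plxna3 not overlapping.

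In cH plxnb1b was the only plexin of 12 that passed. It was at 210.1, 41.0, 261 and 127 CPM in cH and 6.59, 22.7, 26.4 and 20.7 CPM in non-cH. Every cH library was above the non-cH libraries, and the log2 fold change was 3.06 ± 0.65 (adjusted p = 0.0181). Its duplicate plxnb1a was at 171 ± 92.7 CPM in cH and 158 ± 36.9 CPM in non-cH. Without passing, plxna2, plxna3 and plxna4 were lower in every cH library than in every non-cH library, with log2 fold changes of -1.73, -1.12 and -1.65 and adjusted p of 0.157, 0.124 and 0.12. So was plxna1b, at 0, 27.7, 39.8 and 57.6 CPM in cH and 127, 89.0, 120 and 112 CPM in non-cH. plxnb2b was at 0.0627, 0, 0.248 and 10.3 CPM in cH and 143, 60.3, 94.9 and 81.4 CPM in non-cH, again without overlap and without passing (adjusted p = 0.137). Levels lower in cH without overlap were thus found in 5 of 12 plexins, beside 18.9% of all genes tested.

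Neuropilins, the ligand-binding co-receptors for class 3 semaphorins, split by gene in LH: both copies of nrp2 rose and nrp1a fell. nrp2b was at 316, 402, 347 and 350.1 CPM in LH and 143, 171, 93.2 and 153 CPM in non-LH. The LH libraries all lay above the non-LH range (1.33 ± 0.17, adjusted p = 0.000774). nrp2a was at 139, 199, 174 and 203 CPM in LH and 88.9, 97.4, 85.3 and 114 CPM in non-LH (0.89 ± 0.15, adjusted p = 0.00322). nrp1a, whose product also binds VEGF, was at 60.6, 55.7, 114 and 80.4 CPM in LH and 234, 272, 211 and 283 CPM in non-LH. Its groups were far apart (-1.69 ± 0.22, adjusted p = 0.000786). Its duplicate nrp1b was at 14.2 ± 4.33 CPM in LH and 22.6 ± 6.56 CPM in non-LH without passing.

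In cH nrp2a was the neuropilin that passed, in the opposite direction. It was at 14.2, 20.5, 22.1 and 34.0 CPM in cH and 118, 84.4, 65.3 and 65.4 CPM in non-cH. The highest cH library lay below the lowest non-cH library (-1.87 ± 0.40, adjusted p = 0.0176). The call was lost with limma voomWithQualityWeights (-1.60, adjusted p = 0.0747, and adjusted p = 0.0541 on all 16 libraries), and kept with DESeq2 (adjusted p = 5.42e-06). nrp2b ranged from 99.2 to 542 CPM in cH and from 127 to 216 CPM in non-cH. nrp1a was at 0.0627, 104, 10.6 and 30.2 CPM in cH and 248, 314, 268 and 245 CPM in non-cH, lower in every cH library but too variable to pass (adjusted p = 0.268).

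Of 11 ephrins 5 fell in LH and none rose, and 4 of the 5 were A ephrins (efna2a, efna3b, efna5a and efna5b). The family did not move as a whole. Another 2 A ephrins, named after their values were seen, were higher in every LH library than in every non-LH library without passing. They were efna1b (24.9 ± 5.09 CPM in LH, 16.6 ± 4.42 CPM in non-LH) and efna3a (44.3 ± 5.39 and 28.5 ± 8.20 CPM). efna3b was at 85.6, 53.7, 66.6 and 91.9 CPM in LH and 153, 127, 186 and 145 CPM in non-LH. The groups did not overlap (-1.04 ± 0.19, adjusted p = 0.00512). efna5b, a copy of ephrin A5, which patterns the retinotectal map in vertebrates, was at 16.4, 15.3, 28.6 and 21.4 CPM in LH and 41.2, 42.5, 40.6 and 45.2 CPM in non-LH (-1.05 ± 0.23, adjusted p = 0.0125). Named after their values were seen, efna2a, efna5a and efnb2b fell by 1.21, 0.91 and 2.05 on the log2 scale.

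In cH efna1a was the ephrin that passed, and it rose. It was at 266, 197, 257 and 235 CPM in cH and 80.4, 39.5, 64.6 and 75.5 CPM in non-cH. The cH libraries were close together and all above the non-cH libraries (1.88 ± 0.27, adjusted p = 0.00441). In LH efna1a was at 39.4 ± 12.6 CPM and in non-LH at 52.3 ± 10.1 CPM, with overlap. The other 10 ephrins in cH had log2 fold changes from -2.71 (efna1b) to 1.53 (efna3a), and efna3b was at 26.2 ± 20.2 CPM in cH and 103 ± 10.9 CPM in non-cH (adjusted p = 0.0815).

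Eph receptors, the tyrosine kinases that bind ephrins, moved both ways in LH, with 3 higher and 3 lower of 19. epha7 was at 180.2, 207, 162 and 181 CPM in LH and 38.7, 50.3, 58.7 and 50.2 CPM in non-LH. No LH library came near the non-LH range, and it had the smallest adjusted p of the members (1.88 ± 0.15, adjusted p = 4.02e-05). epha6 was at 40.3, 29.9, 60.4 and 63.5 CPM in LH and 12.9, 15.7, 9.43 and 14.2 CPM in non-LH (1.90 ± 0.29, adjusted p = 0.00186). epha3 fell, at 6.83, 21.5, 7.34 and 3.02 CPM in LH and 82.9, 50.8, 88.7 and 83.0 CPM in non-LH. The highest LH library was below the lowest non-LH library (-2.98 ± 0.53, adjusted p = 0.00464). ephb4a, whose product in vertebrates pairs with ephrin B2 in vessels, was at 62.3, 71.4, 57.2 and 63.0 CPM in LH and 94.9, 93.2, 79.2 and 100.3 CPM in non-LH (-0.53 ± 0.13, adjusted p = 0.0221). The endothelial markers summed to 84.8 to 179 CPM in LH and 102 to 193 CPM in non-LH, with kdrl at 0 in LH and flt1 at 0 in both LH and non-LH, and their part was not tested. epha5 (0.94) rose and epha8 (-1.51) fell as well, named after their values were seen.

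In cH 3 A-class Eph receptors rose and 1 B-class receptor fell. epha3 was at 347, 143, 246 and 267 CPM in cH and 64.2, 30.2, 94.5 and 63.2 CPM in non-cH. All cH libraries were above all non-cH libraries (1.99 ± 0.40, adjusted p = 0.0151), where in LH the gene had fallen. epha4b, a copy of EphA4, which binds ephrins of both classes, was at 538, 321, 268 and 150.5 CPM in cH and 97.9, 79.5, 106 and 129 CPM in non-cH (1.63 ± 0.38, adjusted p = 0.0248). epha4l, named after its values were seen, was at 119 ± 73.7 CPM in cH and 23.0 ± 14.2 CPM in non-cH (2.37 ± 0.63, adjusted p = 0.0458). ephb3a went the other way, at 17.9, 71.3, 45.0 and 42.0 CPM in cH and 306, 262, 377 and 402 CPM in non-cH. Its cH libraries all lay far below the non-cH range (-2.93 ± 0.41, adjusted p = 0.00438). The table also has rows ephb3b and ephb3, and since ephb3 is a synonym of both ephb3a and ephb3b, reads of these genes may be divided among rows. epha6, raised in LH, was at 0, 0, 2.12 and 2.11 CPM in cH and 27.6, 15.6, 21.5 and 16.5 CPM in non-cH, without passing (adjusted p = 0.23).

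**Figure D3:**
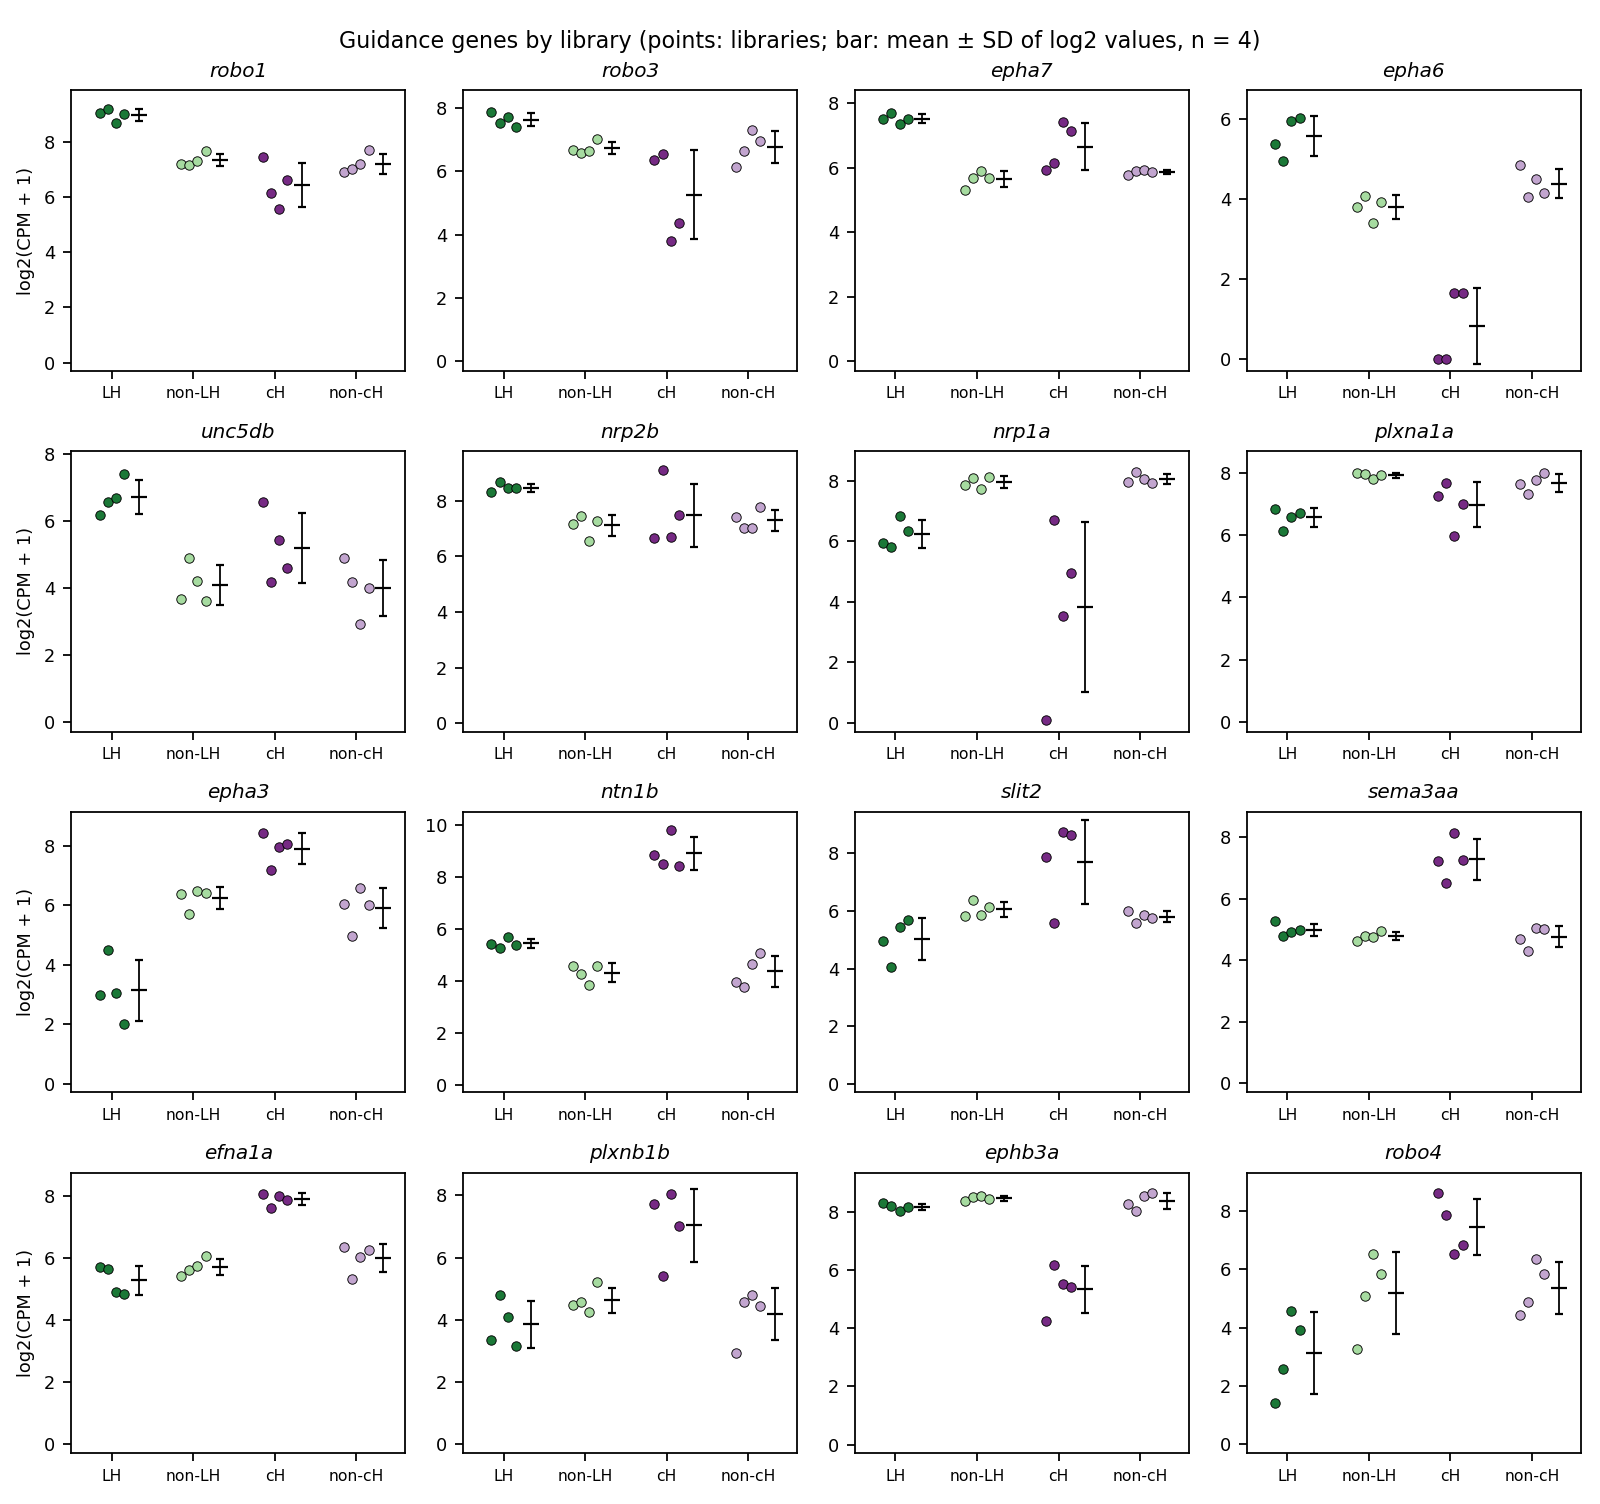
Level of 16 members in each library as log2(CPM + 1), with LH, non-LH, cH and non-cH from left to right, points for libraries and bars for the mean ± SD of the 4 log2 values. robo1, robo3, epha7, epha6, unc5db and nrp2b lie higher in all LH libraries than in all non-LH libraries; ntn1b, sema3aa, efna1a and epha3 are highest in all 4 cH libraries, and slit2 in 3 of them.

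Of the 4 Robo receptors 2 rose in LH, robo1 and robo3, and none of the 4 slits, their ligands, passed. robo1 was at 531, 580.2, 414 and 511 CPM in LH and 148, 144, 156 and 204 CPM in non-LH. The LH libraries lay well above the non-LH libraries (1.64 ± 0.14, adjusted p = 6.96e-05). robo3, known for its part in commissural axon crossing, was at 231, 184, 208 and 166 CPM in LH and 101, 94.3, 99.3 and 129 CPM in non-LH (0.90 ± 0.14, adjusted p = 0.0025). robo2 was at 332, 357, 408 and 479 CPM in LH and 293, 308, 223 and 332 CPM in non-LH, where LH 1 barely exceeded the highest non-LH library (0.45 ± 0.15, adjusted p = 0.0816). robo4 did not pass and had a negative log2 fold change of -2.11 ± 0.82 (adjusted p = 0.135). slit2, which encodes a secreted Robo ligand, was at 30.1, 15.5, 42.9 and 51.0 CPM in LH and 56.4, 82.0, 57.2 and 69.6 CPM in non-LH, not overlapping but not passing (-0.93 ± 0.33, adjusted p = 0.0985).

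In cH slit2 rose and no Robo receptor passed. slit2 was at 232, 47.1, 428 and 395 CPM in cH and 63.5, 47.1, 57.5 and 53.2 CPM in non-cH. The other 3 cH libraries were several times above the non-cH range, and cH 2 lay at its lower end (2.32 ± 0.59, adjusted p = 0.0357). robo2 was at 184, 93.4, 128 and 35.0 CPM in cH and 264, 245, 261 and 246 CPM in non-cH, without overlap (-1.21 ± 0.44, adjusted p = 0.135). robo1 was at 96.9 ± 55.0 CPM in cH and 150.0 ± 39.7 CPM in non-cH, and robo3 at 51.4 ± 40.9 and 112 ± 37.6 CPM. robo4, known from vessels, was at 387, 229, 90.9 and 111 CPM in cH and 20.3, 28.1, 80.7 and 55.5 CPM in non-cH (2.15 ± 0.61, adjusted p = 0.0569). It was higher in every cH library than in every non-cH library, without passing. The 16 endothelial markers summed to 31.4 to 121 CPM in cH and 82.1 to 273 CPM in non-cH, with overlap. Of these markers 5 had no count in cH, among them flt1, which had none in LH and non-LH either. The part of endothelial cells in the level of robo4 was not tested.

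Among netrins and their receptors, ntn1b rose in both sorts. In LH it was at 41.9, 37.9, 51.1 and 40.9 CPM, against 23.1, 18.3, 13.4 and 23.0 CPM in non-LH. The groups did not overlap (1.14 ± 0.22, adjusted p = 0.00763). This call in LH was lost with all 16 libraries in 1 edgeR model and with limma voomWithQualityWeights on all 16 libraries. In cH it was at 469.9, 368, 909 and 349.7 CPM, against 14.4, 12.7, 24.3 and 33.1 CPM in non-cH. Each cH library was over 10 times the highest non-cH library (4.63 ± 0.48, adjusted p = 0.00147). Its duplicate ntn1a did not pass in either: it was at 17.7 ± 2.38 CPM in LH and 27.6 ± 3.76 CPM in non-LH (adjusted p = 0.0697), and at 17.6 ± 24.4 CPM in cH and 25.0 ± 4.90 CPM in non-cH. ntn2 had no count in LH and 53, 0, 57 and 162 counts in non-LH, where 1 library was at 0 too, and it was too low to be tested there.

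The Unc5 receptors divided by gene in LH: both copies of unc5d rose, and unc5b and unc5c fell. unc5db was at 72.2, 94.0, 101 and 168 CPM in LH and 11.6, 28.7, 17.5 and 11.2 CPM in non-LH. All LH libraries were above all non-LH libraries (2.66 ± 0.37, adjusted p = 0.00109), the largest rise among the members called in LH. unc5da was at 52.9, 45.0, 53.5 and 41.5 CPM in LH and 26.8, 17.0, 21.3 and 11.9 CPM in non-LH (1.32 ± 0.26, adjusted p = 0.00711). unc5b was at 5.96, 9.53, 7.87 and 4.63 CPM in LH and 23.4, 40.8, 26.0 and 17.9 CPM in non-LH (-1.95 ± 0.34, adjusted p = 0.00417). unc5c was at 8.24, 17.4, 22.9 and 20.3 CPM in LH and 52.8, 43.5, 41.4 and 53.7 CPM in non-LH. For both falling genes the groups lay apart, and for unc5c the log2 fold change was -1.48 ± 0.30 (adjusted p = 0.00927).

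In cH no Unc5 receptor passed. unc5c was at 93.5, 45.5, 142 and 48.3 CPM in cH and 57.0, 45.2, 61.3 and 43.1 CPM in non-cH, with overlap (0.67 ± 0.42, adjusted p = 0.453). unc5da was at 0, 0, 0 and 0.637 CPM in cH and 19.6, 3.00, 5.88 and 28.9 CPM in non-cH (adjusted p = 0.119). dcc, the attractive netrin receptor, passed in neither sort. It was at 59.3, 61.3, 65.2 and 37.0 CPM in LH and 83.0, 77.6, 66.0 and 92.5 CPM in non-LH, just without overlap (-0.52 ± 0.20, adjusted p = 0.124). In cH it was at 3.82, 20.8, 29.8 and 16.7 CPM, against 57.8, 72.4, 27.5 and 71.1 CPM in non-cH, with cH 3 above the lowest non-cH library (-1.68 ± 0.65, adjusted p = 0.166).

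The members that did not pass spanned wide ranges. In LH the log2 fold changes of 13 Eph receptors ran from -1.30 (ephb4b) to 0.85 (epha2a), those of 7 plexins from -0.71 (plxnb1b) to 1.20 (plxnd1) and those of 6 ephrins from -0.41 (efna1a) to 0.64 (efna3a). The 4 slits ran from -0.93 (slit2) to 0.89 (slit1b). In cH 15 Eph receptors ran from -4.26 (epha6) to 3.68 (epha2a), 23 semaphorins from -4.02 (sema5a) to 2.98 (sema3c) and 11 plexins from -5.15 (plxnb2b) to 0.40 (plxnb2a). The ranges of members without a call were thus wider in cH, where replicates also differed more. unc50, a gene outside the guidance receptors despite its symbol, was at 0.03 in LH and 1.06 in cH without passing.

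Summed over each family, without a test, Robo receptors stood at 1112 ± 49.2 CPM in LH and 604.9 ± 78.0 CPM in non-LH, and Unc5 receptors at 214 ± 44.6 and 137 ± 14.3 CPM. Ephrins stood at 349 ± 32.0 CPM in LH and 522 ± 36.9 CPM in non-LH, and plexins at 1126 ± 132 and 1471 ± 74.4 CPM. These 4 families keep LH and non-LH libraries apart, the first pair higher and the second pair lower in LH. They were not the only ones. Semaphorins (893 to 938 CPM in LH, 1005 to 1137 CPM in non-LH) and dcc were lower without overlap. Netrins were higher (59.1 to 81.4 CPM in LH, 46.0 to 58.0 CPM in non-LH), and neuropilins, Eph receptors and slits overlapped. The share over other gene sets was not computed. In cH netrins stood at 552 ± 255 CPM, against 52.1 ± 7.58 CPM in non-cH, and ntn1b alone at 524 ± 262 CPM in cH. Slits stood at 379 ± 88.1 CPM in cH and 178 ± 15.4 CPM in non-cH, and ephrins at 613 ± 30.5 and 456 ± 37.8 CPM. Neuropilins ranged from 113 to 711 CPM in cH and from 496 to 549 CPM in non-cH, so that cH 2 alone lay above non-cH; the log2 ratio of the means was -0.80 with all libraries and -1.64 without cH 2. Eph receptors summed to 1199 ± 93.1 CPM in LH and 1152 ± 51.6 CPM in non-LH, which is a small difference beside the opposite moves of single receptors.

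**Figure D4:**
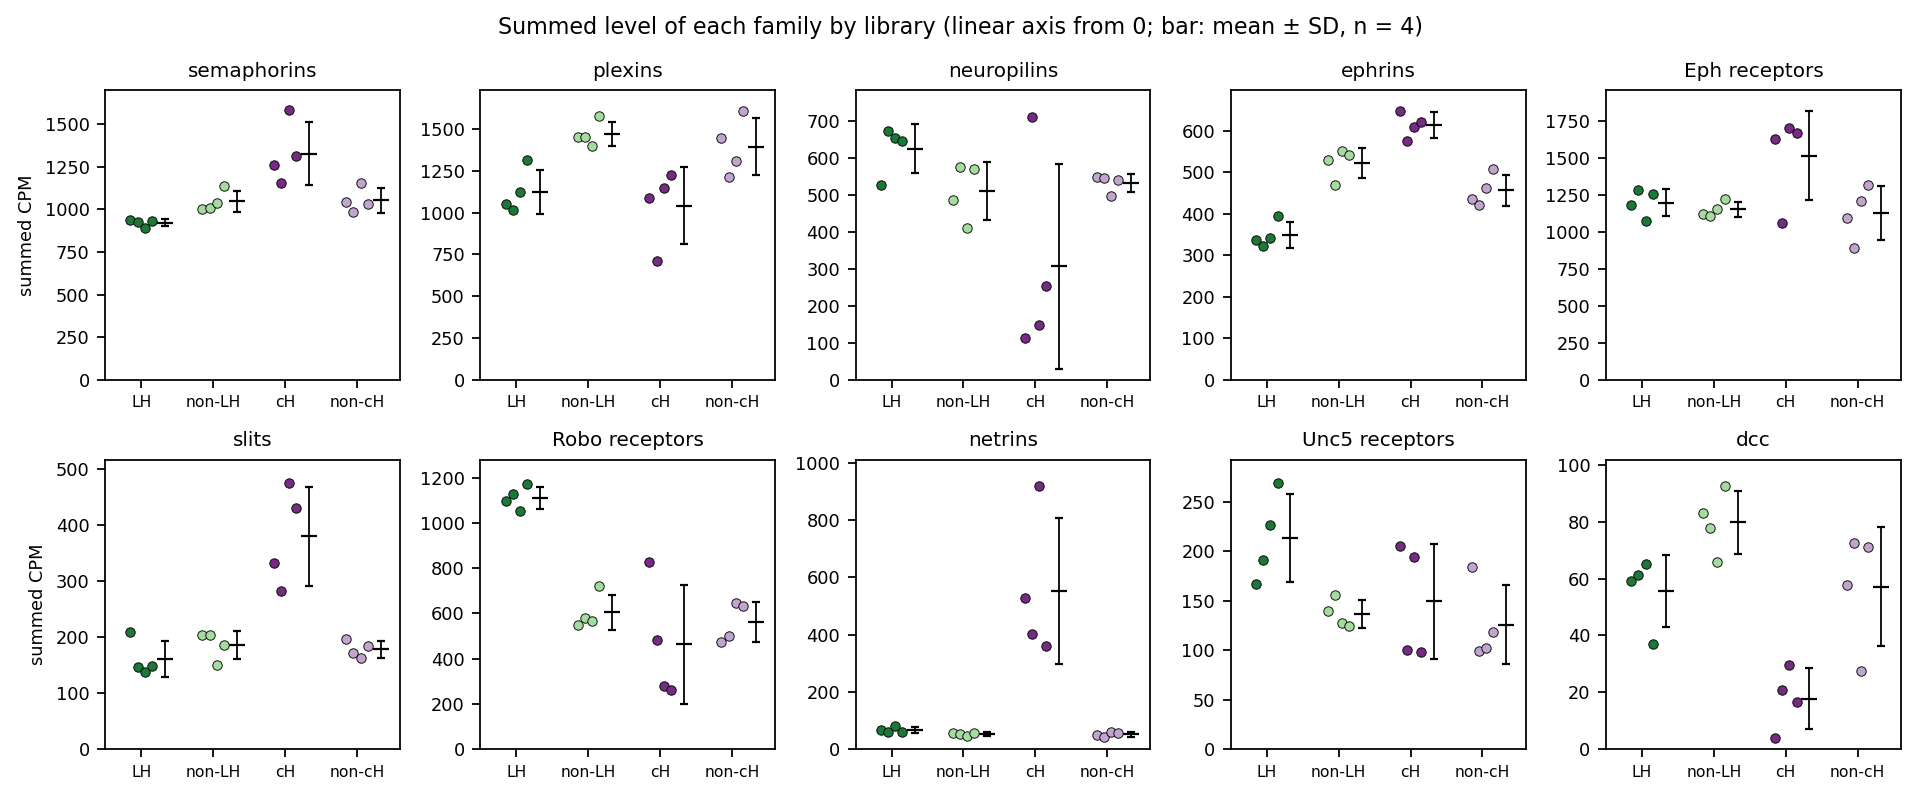
Summed CPM of each family in each library on a linear axis from 0, with LH, non-LH, cH and non-cH from left to right and bars for the mean ± SD of 4 libraries. Robo receptors are highest in LH (1112 CPM on average), netrins in cH (552 CPM), and neuropilins spread from 113 to 711 CPM in cH.

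LH and cH cells were then compared directly, which also compares the lines and reporters. Of 91 members tested 7 were higher and 12 lower in LH, which is 20.9% against 13.6% of all 17044 genes, of which 7.58% were higher and 5.98% lower. The members with the smallest p that were higher in LH were nrp2a (2.98 ± 0.33, adjusted p = 0.00131), ephb3a (2.72 ± 0.39, adjusted p = 0.00409) and robo1 (2.39 ± 0.40, adjusted p = 0.00705). Lower in LH were ntn1b (-3.61 ± 0.36, adjusted p = 0.000932), efna1a (-2.60 ± 0.29, adjusted p = 0.00128) and epha3 (-4.70 ± 0.66, adjusted p = 0.00366). Without any 1 LH library 4 members were higher, and without LH 1, 2 or 3 there were 7 lower. The 6 named calls held without each library in turn. Their levels did not overlap between LH and cH, but they were picked by smallest p from these same libraries. Of the 91 members, levels did not overlap for 24 that were higher and 13 that were lower in LH, against 20.8% and 10.3% of all genes. The negative sorts of the 2 lines gave 0 calls of 96, against 0.0689% of 18865 genes (0.0265% higher and 0.0424% lower in non-LH). Levels did not overlap for 3 members that were higher and 1 that was lower in non-LH, against 3.67% and 2.81% of all genes. Of the 96 members, 5 had an unadjusted p under 0.05 in edgeR, which is about the share that this threshold gives by chance. DESeq2 called 1 member, and over all 18865 genes it called 156 higher and 119 lower.

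Whether the change in LH differed from the change in cH was tested as a difference of differences in 1 model of all 16 libraries. The model takes 1 spread per gene for all groups, although cH replicates varied more than the others, so its p-values may misstate the spread. Of 96 members 9 were higher and 11 lower, against 12.1% of 20241 genes in either direction (7.54% higher and 4.52% lower). The change in LH exceeded that in cH for nrp2a by 2.76 ± 0.38 on the log2 scale (adjusted p = 0.000219) and for ephb3a by 2.65 ± 0.41 (adjusted p = 0.00052). It did so for sema4ga too (adjusted p = 0.000245), which has no count in cH, so that no size is given. The change in LH was below that in cH for ntn1b (-3.49 ± 0.50, adjusted p = 0.000267), epha3 (-4.97 ± 0.73, adjusted p = 0.000346) and efna1a (-2.29 ± 0.38, adjusted p = 0.000876). Thus ntn1b, which rose in both sorts, rose more in cH, and the opposite moves of nrp2a and epha3 passed the test of the difference. These 6 calls held without each library in turn; in number, 5 were higher without non-LH 3 and 7 lower without non-cH 2.

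Many guidance genes of zebrafish have 2 copies from the genome duplication of teleost fish, and the log2 ratio of the a copy to the b copy within a library does not depend on scaling. Of 24 pairs, the ratio did not overlap between LH and non-LH for 9 and between cH and non-cH for 7. For these the exact permutation p was 0.0286, two-sided and unadjusted, the smallest that 4 against 4 allow. The share over duplicate pairs outside the guidance genes was not computed, so whether these counts are particular to guidance genes is not known. Levels of single genes did not overlap for 9.91% (higher) and 12.3% (lower) of all genes in LH. In cH this held for 8.96% and 18.9%. For ntn1 the log2 ratio of ntn1a to ntn1b was -1.28 ± 0.21 in LH and 0.53 ± 0.40 in non-LH, and -5.68 ± 1.95 in cH and 0.33 ± 0.81 in non-cH. The ratio was thus below 0 in every LH and cH library and above 0 in 7 of the 8 libraries of negative cells. Without a correction for gene length a ratio of 0 does not mark equal levels, so only shifts between groups can be read. For efna3 the ratio was -0.72 ± 0.30 in LH and -2.46 ± 0.41 in non-LH, and 1.77 ± 1.92 in cH and -1.90 ± 0.50 in non-cH, so that efna3a gained on efna3b in both sorts.

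The remaining pairs that separated LH from non-LH were efna1, efnb2, ephb2, nrp1, sema3f, sema3g and sema4g, with differences in the log2 ratio from -1.55 (ephb2) to 4.99 (sema4g). sema4gb had 5, 0, 9 and 102 counts in LH, and the difference for sema4g was 3.81 with 5 counts added in place of 0.5. For nrp1 the ratio of nrp1a to nrp1b was 2.44 ± 0.42 in LH and 3.50 ± 0.33 in non-LH, and 1.20 ± 1.03 in cH and 3.82 ± 0.61 in non-cH. Both positive sorts were thus less weighted to nrp1a. In cH the ratio of nrp2a to nrp2b was -3.03 ± 1.16, against -0.95 ± 0.55 in non-cH, and that of plxnb1a to plxnb1b was 0.24 ± 1.1, against 3.20 ± 0.79 in non-cH. The pairs plxnb2 and unc5d also separated cH from non-cH. A copy was at 0 in 1 library for nrp1 and plxnb2 and in 3 for unc5d, so the size of these differences in cH depends on the 0.5 counts added.

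**Figure D5:**
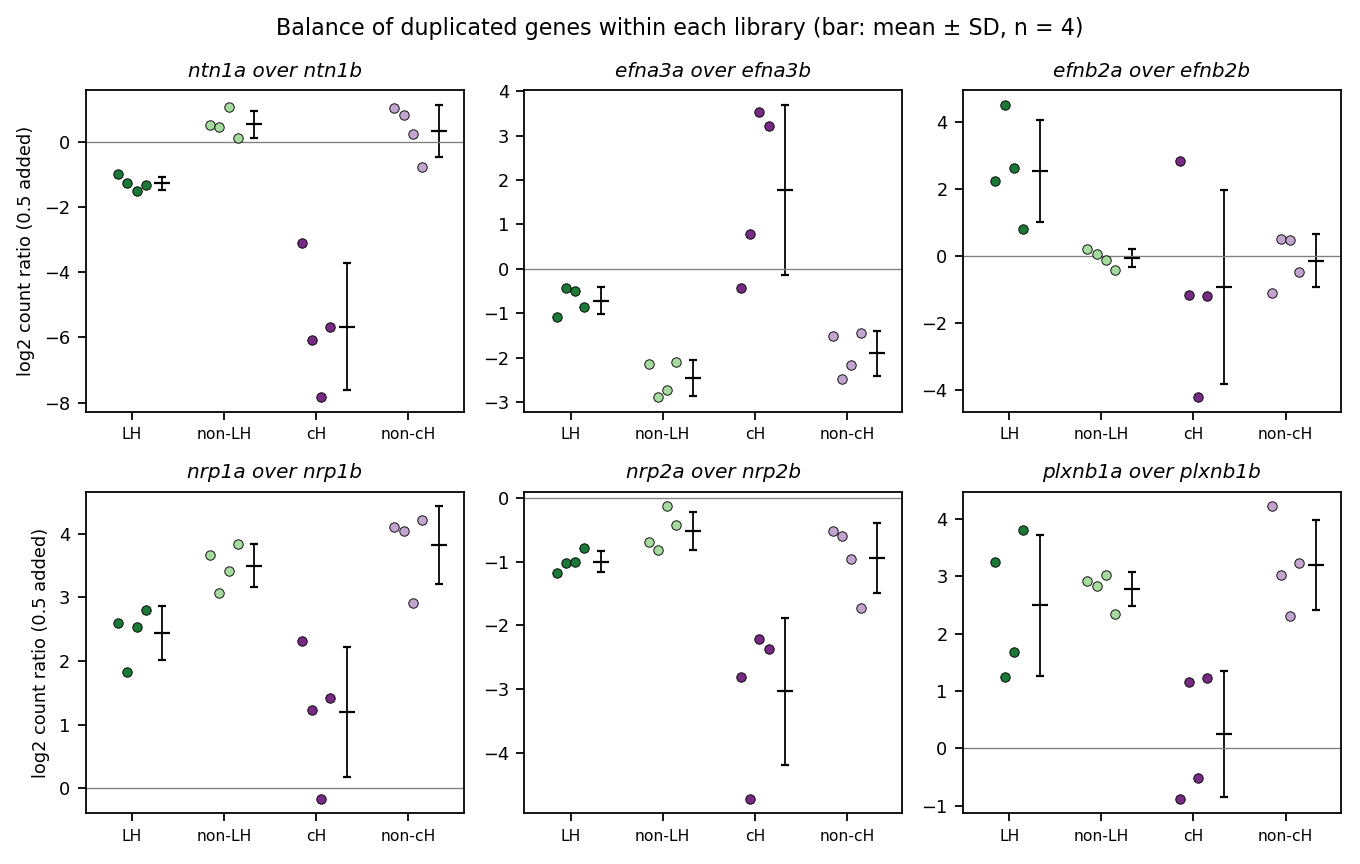
log2 ratio of the counts of the a copy to those of the b copy (0.5 added to each) within each library for 6 duplicated genes, with LH, non-LH, cH and non-cH from left to right and bars for the mean ± SD of 4 libraries. The ntn1 ratio is lower in every LH and cH library than in every library of their own negative cells. The plxnb1 ratio in cH averages 0.24, against 3.20 in non-cH. A ratio of 0 does not mark equal levels, as gene length is not corrected for.

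Other guidance genes were taken as lists of partners and of effectors. Of 35 partners and co-receptors tested, 6 rose and 7 fell in LH, where 13.5% of all genes were called, and 5 rose and 3 fell in cH, where 11.9% were. Their median log2 fold change was -0.22 in LH, against -0.05 over all genes, and 0.13 in cH, against -0.21 over all genes. cxcr4a, the receptor of the chemokine cxcl12, was at 20.0, 16.1, 19.4 and 29.8 CPM in LH and 1.96, 2.14, 2.76 and 1.13 CPM in non-LH (3.41 ± 0.38, adjusted p = 0.000285). The ligand gene cxcl12a was at 507, 321, 364 and 241 CPM in cH and 39.2, 42.9, 58.5 and 26.6 CPM in non-cH (3.10 ± 0.33, adjusted p = 0.00162). Its duplicate cxcl12b, given by its levels alone, was at 0, 0, 0 and 0.0439 CPM in cH and 23.7, 17.6, 15.6 and 2.89 CPM in non-cH. It was low in non-LH as well, at 0, 2.67, 3.71 and 9.22 CPM. Which receptor copy binds which ligand copy was not tested. In LH cxcl12a fell (-1.23 ± 0.32, adjusted p = 0.0316). rgma, a ligand of neogenin, was at 997, 698, 1509 and 1137 CPM in cH and 147, 179.7, 224 and 219 CPM in non-cH (2.50 ± 0.27, adjusted p = 0.00167). draxin, a secreted netrin antagonist, was at 5.14 ± 1.96 CPM in LH and 34.3 ± 7.56 CPM in non-LH (-2.74 ± 0.35, adjusted p = 0.000723). boc, a hedgehog co-receptor, fell in LH (-1.59 ± 0.25, adjusted p = 0.00265) and rose in cH (2.04 ± 0.28, adjusted p = 0.00418). All genes of these lists that are given values were named after their values were seen.

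Of 71 intracellular effectors tested in LH 8 rose and 7 fell, and of 70 in cH 6 rose and 8 fell, beside the same 13.5% and 11.9% of all genes called. Their median log2 fold change was -0.07 in LH and -0.35 in cH, against -0.05 and -0.21 over all genes. ngef, which encodes ephexin, an exchange factor coupled to EphA receptors, was at 161, 168, 188 and 201 CPM in LH and 4.43, 5.96, 9.62 and 24.5 CPM in non-LH. The lowest LH library was several times the highest non-LH library (4.01 ± 0.50, adjusted p = 0.000599). ablim1a (-1.09 ± 0.13) and srgap3 (-0.91 ± 0.14), a slit-Robo GTPase activator, fell in LH. In cH nck1a, an adaptor (2.47 ± 0.30, adjusted p = 0.0025), and dock1, a Rac exchange factor (2.01 ± 0.28, adjusted p = 0.00425), rose. The growth cone gene gap43 was at 11.6, 55.0, 3.04 and 19.4 CPM in cH and 213, 255, 230.0 and 161 CPM in non-cH (-3.27 ± 0.78, adjusted p = 0.0274). The collapsin response mediator genes dpysl3 (-2.63 ± 0.44, adjusted p = 0.00902) and dpysl5a (-1.55 ± 0.24, adjusted p = 0.00638) fell in cH too. The duplicate dpysl5b did not move with dpysl5a, at 308, 313, 318 and 159.5 CPM in cH and 174, 211, 206 and 256 CPM in non-cH, with overlap. gap43 is also on the pan-neuronal list, which fell with it.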

How the data were processed

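The values deposited by the authors are whole-number counts of reads, not normalised, with a column for each of 16 libraries. Per the labels' protocols, RNA of sorted cells was amplified with a SMART-seq method and tagmented with Nextera XT, which does not mark strand. Per the submitters' processing notes STAR, FastQC and the build GRCz11 were used, with no versions; the tool that counted reads and its handling of multiply mapped reads are not given in the sources used here. Of 47038 rows, 9 malformed ones were left out. Rows of a symbol with endings _1, _2 and so on were summed, giving 30565 symbols; 24 of the 96 members have more than 1 row. Reads of near-identical copies can be divided between rows. All members were found in a RefSeq table of another assembly, 91 by symbol and the others by a synonym, so no coordinates are given.

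TMM factors were computed on all 16 libraries. Tests used edgeR 4.0.16 under R 4.3.3 (filterByExpr with a minimum count of 10 and total of 15, robust quasi-likelihood F test, two-sided) on the 8 libraries compared, and on all 16 for the difference of differences, with Benjamini-Hochberg adjustment over all genes tested and a threshold of 0.05. The SE was taken as log2 fold change over √F. Bounds for genes with no count in a group use a floor of 3 counts over the group; the libraries have no molecular identifiers, so floors cover counting error only and PCR copies are not independent molecules. Pairs of duplicates needed a mean of at least 50 counts in 1 copy and were compared with exact permutation tests (scipy 1.17.1). Steps were tested on simulated data that gave each gene the same spread in every group. That setting does not cover the wider spread of the cH libraries. Deviations of replicates with the same number were positively but weakly correlated (0.00465 to 0.0694), and libraries were treated as unpaired. The best match had the same number for LH replicates 2, 3 and 4 and for cH replicates 1 and 3. Whether the numbers mark pairs is not settled by these values, and counts with a block on the number are given below. The alternatives were DESeq2 1.42.0, limma 3.58.1 with voom and quality weights, other scaling, filters and rows, a block on the number, and left-out libraries.

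The members, gene lists and design were chosen with earlier results of these data known. Named in each main comparison are, per family, the 2 called members with the smallest p in each direction, dcc, and in a family without a call the member of highest mean; in the other comparisons the 3 with the smallest p each way.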

Additional observations from a re-analysis of the deposited data

Results flagged for a closer look

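In groups of 4 libraries 8 of 162 screened sets of values held a library far from the other 3; chance gives about 1 in 20. epha3 was at 50.8 CPM in non-LH 2, below the other non-LH libraries, and plxnb2b at 10.3 CPM in cH 4, where the other cH libraries were near 0. sema3h was at 27.0 CPM in non-cH 3, sema6d at 11.6 CPM in LH 3 and unc5da at 0.637 CPM in cH 4, each above the rest of its group. Among summed families, Eph receptors were at 1063 CPM in cH 2, below the other cH libraries, Robo receptors at 720.6 CPM in non-LH 4 and slits at 208.8 CPM in LH 1, both above theirs.

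The change in LH against non-LH minus that in cH against non-cH passed the test of the difference in 20 members (edgeR, all 16 libraries, adjusted over all genes). It was positive, on the log2 scale, for nrp2a (2.76), ephb3a (2.65), robo1 (2.27), robo2 (1.65), plxna3 (1.41), epha6 (6.15), unc5da (7.70), sema6d (10.06) and sema4ga (11.21). The sizes for sema4ga and sema6d, with no count in cH, and those for epha6 and unc5da, with cH libraries at 0, depend on how zeros are treated. It was negative for epha3 (-4.97), robo4 (-4.26), plxnb1b (-3.77), ntn1b (-3.49), slit2 (-3.24), epha4l (-3.11), sema3aa (-2.43), efna1a (-2.29), unc5c (-2.15), efna2a (-1.54) and epha4b (-1.41). Of the 20 calls 12 held without each library in turn. The 8 others were those of efna2a (lost without non-cH 2), epha6 (without non-LH 3), robo4 (without non-LH 3 or non-cH 2), and, each lost without 10 or more of the 16 libraries, robo2, epha4l, plxna3, epha4b and sema6d, with adjusted p up to 0.101.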

How the results depend on the processing

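No member's call changed sign under an alternative. In LH against non-LH 10 members rose and 18 fell; the all-16-library model gave 3 and 2, the block on the replicate number 9 and 16, leaving out 1 library 9 to 12 and 13 to 16, and the other alternatives stayed within 1.5 times. In cH against non-cH, 10 rises and 6 falls became 16 and 16 with all 16 libraries in 1 model, 16 and 17 with limma voomWithQualityWeights (16 and 16 on all 16 libraries, added after seeing the data), 18 and 12 with DESeq2, 4 and 1 with the replicate block, 17 and 18 without cH 1 and cH 2, and 3 to 11 and 1 to 11 without 1 library. In LH against cH, 7 higher and 12 lower became 17 and 19 with all 16 libraries, 17 and 20 with voom (15 and 21 on all 16), 14 and 18 with DESeq2, 21 and 20 without cH 1 and cH 2, and 4 to 10 and 7 to 14 without 1 library. In the difference of differences, 9 higher and 11 lower became 21 and 18 without cH 1 and cH 2, 6 and 6 with the replicate block, and 5 to 12 and 7 to 15 without 1 library. DESeq2 called 1 member higher in non-LH against non-cH, where edgeR called 0. Over all 18865 genes DESeq2 called 156 higher and 119 lower there. The replicate numbers were not taken as pairs. Same-numbered libraries had correlations of their deviations from 0.00465 to 0.0694, all positive, which does not settle whether they are pairs. In cH the median of all genes was -0.21 on the log2 scale and moved to -0.77 with voom, -0.79 with the block, -0.43 without a filter and -0.32 with all 16 libraries, so falls there are to be read against it. The neuropilin sum in cH, with a log2 ratio of -0.80, ranged from -1.64 to -0.52 without 1 library. The ephrin sum in cH had a log2 ratio of 0.28 with library totals in place of TMM, and the unc5da to unc5db difference in cH was -6.62 with 5 counts added. In all these cases the cause was not tested, beyond that fewer libraries enter some fits. Low counts limit sema3e, ntn2 and ntn5.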
